A study of Mus musculus with 16 samples.

Results

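Of 2774 regions where H3K4me1 was higher in wild-type (WT) than in NCoR1-deleted (KO) mouse intestinal epithelial cells, 137 lay beside a gain of histone acetylation in KO. This was 4.94% of the list (95% Wilson interval 4.19 to 5.81, counting error only). A member was a WT-higher H3K4me1 region with a KO-higher H3K27ac or H3K9ac region within 2 kb, edge to edge. It also had no WT-higher H3K27ac or H3K9ac region within 1 kb. No region met both conditions at once, so this exclusion removed none. The other regions of the list form 2 classes, 354 beside WT-higher acetylation and 2283 beside neither. In these class names, beside means within 1 kb of WT-higher acetylation but within 2 kb of a gain. A region with WT-higher acetylation over 1 kb away can therefore stand in the class beside neither. The members were thus chosen by H3K4me1, H3K27ac and H3K9ac, whose values are given as a description. H3K4me3, H3K27me3, H3K9me3, RNA and sequence took no part in the rule.

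Chromatin came from jejunal epithelial cells of C57BL/6 neonates at postnatal day 12, and 1 ChIP library was made per mark and genotype. The labels give the genotypes as WT and NCoR1 deletion KO, and call the animals F/FUN and DIECUN. From general knowledge of the study, Cre under the Villin promoter removed Ncor1 from the intestinal epithelium. The mice of both groups carried a human UGT1 locus in place of the mouse one, and WT stands for animals with undeleted Ncor1. The labels do not say how many animals a library holds. The samples are ChIP and input libraries, with no RNA library among them. RNA values are from a comparison deposited by the authors, and the sample labels do not give its animals, age or gut segment. A deposited list names the regions of 1 mark in which the library of 1 genotype was above that of the other. There were no replicates, so the spread between libraries of a genotype is unknown and no p-value was computed. The 6 libraries behind the rule held 24263055 to 32444815 tags after duplicates were removed. Duplicate removal left 56.0% (KO) and 64.3% (WT) of H3K9ac tags, and 82.9 to 87.1% of those of the other 4 libraries.

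NCoR1 is a corepressor that binds unliganded nuclear receptors such as LXR, PPAR and thyroid hormone receptors, and carries the histone deacetylase HDAC3 to their sites. H3K4me1 marks enhancers and the flanks of active promoters, H3K4me3 marks the start of active genes, and H3K27ac and H3K9ac mark active enhancers and promoters. A place that gains acetylation often holds H3K4me1 as well. In the regions described here the marks went opposite ways between the libraries.

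For each of 6 genes 1 member is printed, because these genes combined the largest RNA differences with members outside exons. They are Abca1 (promoter), Scd1 and Scd2 (between genes), and Abcg5, Lpcat3 and Farp2 (introns). Each is the + strand of mm9, 5′ to 3′. The Scd1 region was cut to 300 bases around its summit, and Abca1 and Scd2 have a further member each that is not printed. Capitals mark the nuclear receptor half-site AGGTCA, searched on both strands, and direct repeats of it spaced by 1 base (DR1) or 4 bases (DR4) with up to 2 mismatches.
Abca1, chr4:53172190-53172408: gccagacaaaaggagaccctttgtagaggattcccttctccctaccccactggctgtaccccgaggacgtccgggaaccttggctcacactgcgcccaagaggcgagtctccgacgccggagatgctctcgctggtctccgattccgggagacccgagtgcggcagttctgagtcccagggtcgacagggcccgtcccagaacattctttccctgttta
Scd1, chr19:44463155-44463454: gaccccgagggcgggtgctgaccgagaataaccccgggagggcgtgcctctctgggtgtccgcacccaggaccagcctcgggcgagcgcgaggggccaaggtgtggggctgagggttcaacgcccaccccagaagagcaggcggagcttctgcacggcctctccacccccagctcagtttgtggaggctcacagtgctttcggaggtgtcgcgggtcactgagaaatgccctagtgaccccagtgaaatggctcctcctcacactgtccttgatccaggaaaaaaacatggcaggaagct
Scd2, chr19:44341347-44341577: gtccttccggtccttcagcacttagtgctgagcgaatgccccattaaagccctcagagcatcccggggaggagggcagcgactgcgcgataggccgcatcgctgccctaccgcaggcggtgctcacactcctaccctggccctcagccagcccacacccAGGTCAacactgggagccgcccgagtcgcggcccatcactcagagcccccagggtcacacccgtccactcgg
Abcg5, chr17:85079840-85080088: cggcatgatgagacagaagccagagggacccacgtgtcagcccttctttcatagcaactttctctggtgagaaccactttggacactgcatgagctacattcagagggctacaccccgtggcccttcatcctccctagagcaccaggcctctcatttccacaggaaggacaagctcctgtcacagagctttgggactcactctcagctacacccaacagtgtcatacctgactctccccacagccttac
Lpcat3, chr6:124617020-124617207: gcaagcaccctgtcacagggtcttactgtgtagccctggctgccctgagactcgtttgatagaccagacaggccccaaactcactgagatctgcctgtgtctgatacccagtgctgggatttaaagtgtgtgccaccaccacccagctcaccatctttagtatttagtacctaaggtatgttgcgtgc
Farp2, chr1:95409897-95410129: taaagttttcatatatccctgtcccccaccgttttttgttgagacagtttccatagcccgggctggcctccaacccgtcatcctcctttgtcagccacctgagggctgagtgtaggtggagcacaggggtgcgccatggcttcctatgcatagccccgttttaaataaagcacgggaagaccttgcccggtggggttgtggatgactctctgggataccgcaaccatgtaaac

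Of these 6 printed stretches only that of Scd2 held a match, 1 half-site at bases 160 to 165. In the 300 bases at each summit, the windows counted in the next paragraph, 1 of the 2 Abca1 members held a DR1 match. Abca1, Scd1 and Scd2 were rich in G and C (61.2, 63.3 and 66.7%) and held 15, 16 and 16 CpG dinucleotides. Abcg5, Lpcat3 and Farp2 were at 54.2, 52.1 and 53.6% with 3, 2 and 8.

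Over the 126 members on mouse chromosomes, the 300 bases at the H3K4me1 summit had a median G+C of 54.3%, beside 54.0% over all 2751 such regions. AGGTCA occurred in 31 members (24.6%; 17.9 to 32.8), in 21.6% of all regions and in 16.1% of 1 in 10 RefSeq promoters of the same length (build GRCm38.p6). DR4, the spacing that LXR and thyroid hormone receptors bind, was found in 8 members (6.35%; 3.25 to 12) and 4.11% of all regions. DR1, the spacing of PPAR and HNF4, was found in 7 members (5.56%; 2.72 to 11) and 6.72% of all regions. Shares for the AP-1 motif TGANTCA (11.1 against 9.31%), the GATA motif AGATAA (8.73 against 11.4%) and the KLF motif GGGNGTGG (13.5 against 15.0%) also had intervals that held the share over all regions. The CDX motif TTTATNG was found in 6 members (4.76%; 2.20 to 10), beside 8.87% over all. The HNF4 motif CAAAGTCCA and the HNF1 motif (up to 2 mismatches) were found in 2 members each (1.59%; 0.436 to 5.60), beside 1.34 and 0.727% over all. The ETS motif CCGGAAGT and the CTCF motif were found in 0 of 126 (upper limit 2.96%), beside 0.291 and 0.509%. For each motif searched, the members' interval held the share over all regions.

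The gained mark was H3K27ac alone beside 77 members (56.2%), H3K9ac alone beside 11 (8.03%) and both beside 49 (35.8%). The authors' H3K4me1 fold, WT over KO, ranged from 1.52 to 4.76 with a median of 2.29. The median was 2.89 beside WT-higher acetylation and 3.02 beside neither. Members had the smaller folds but the higher signal: their pileup, the tag coverage at the summit, had a median of 70 against 44 and 34 in those classes. The nearest gained acetylation, of either mark, had folds of 1.31 to 6.67, KO over WT, with a median of 2.15. This pools 2 lists whose median folds were 2.52 (H3K27ac) and 2.91 (H3K9ac). The H3K4me1 and pooled acetylation folds were correlated across members (Spearman rho 0.46, n = 137, a description across regions of the same libraries). No correlation was taken within 1 mark.

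**Figure D1:**
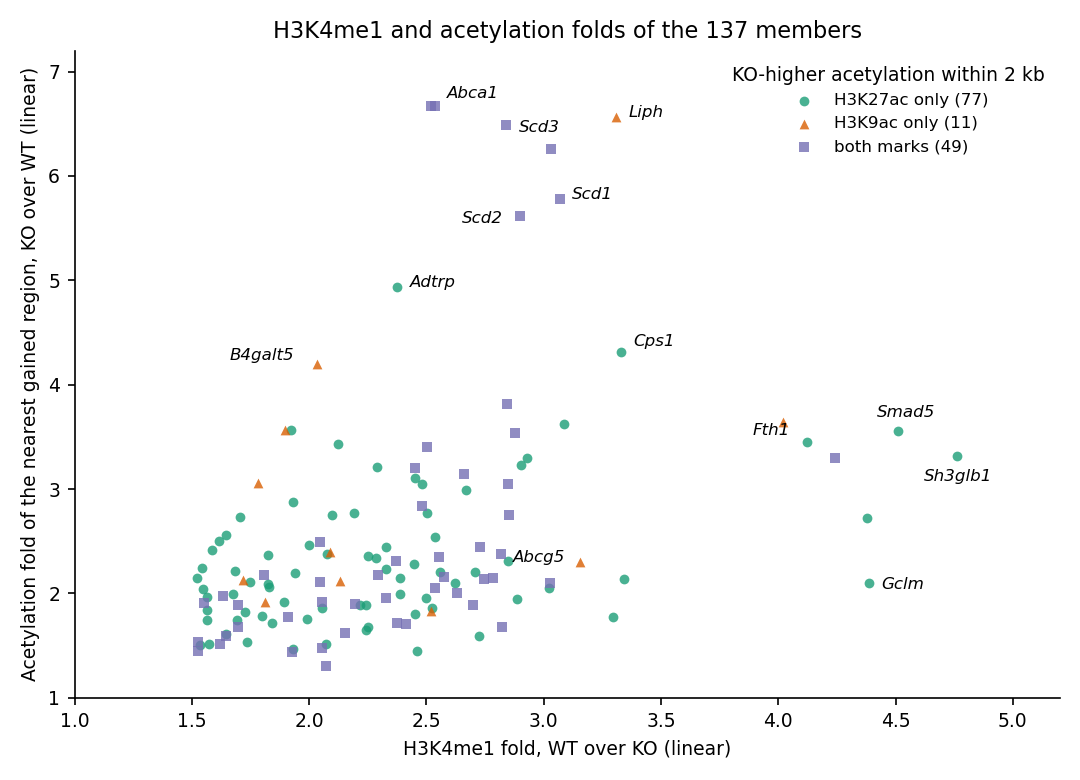
H3K4me1 fold (x axis, WT over KO) against the fold of the nearest gained acetylation region of either mark (y axis, KO over WT) for the 137 members, with symbols for the mark gained within 2 kb. Most members sit below a fold of 4 on both axes; Abca1, Scd1, Scd2, Scd3 and Liph stand highest for acetylation and Sh3glb1 is farthest right.

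In most members the loss and the gain lay at the same place. The H3K4me1 region shared bases with the gained acetylation in 89 of 137 members (65.0%; 56.7 to 72.4), and in 81 of 126 (64.3%) without the members on an added sequence described below. The summits were a median of 55 bp apart, with a range from 0 to 2253 bp. They were within 100 bp in 76 members (55.5%) and over 1 kb apart in 23 (16.8%). Near the 2 kb limit, the members of Adtrp, Cps1, F2rl1 and Ank were just inside at 1989, 1988, 1890 and 1879 bp. Regions of Chd9, Esr2, Dhrs3 and Nudt4 were just outside at 2029, 2052, 2142 and 2254 bp.

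Members lay nearer to gene starts than the other regions of the list. Their median distance from a protein-coding start was 4171 bp, against 13670 bp beside WT-higher acetylation and 14958 bp beside neither. Within 5 kb of a start were 66 of 126 (52.4%; 43.7 to 60.9), 31.2% (26.6 to 36.2) and 29.2% (27.3 to 31.1). Promoters, within 1 kb of a start, held 22 members (17.5%; 11.8 to 25) beside 11.7% of all regions, and these intervals overlapped those of the other classes. Introns held 66 members (52.4%; 43.7 to 60.9), beside 46.3% of all regions. The space between genes held 29 (23.0%; 16.5 to 31.1), beside 35.4% of all regions. Coding exons held 8 (6.35%; 3.25 to 12) beside 4.73%, and an untranslated exon 1 (0.794%) beside 1.89%. Where both regions shared no base, the acetylation was the nearer of them to a start in 21 of 45 members (46.7%; 32.9 to 60.9).

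**Figure D2:**
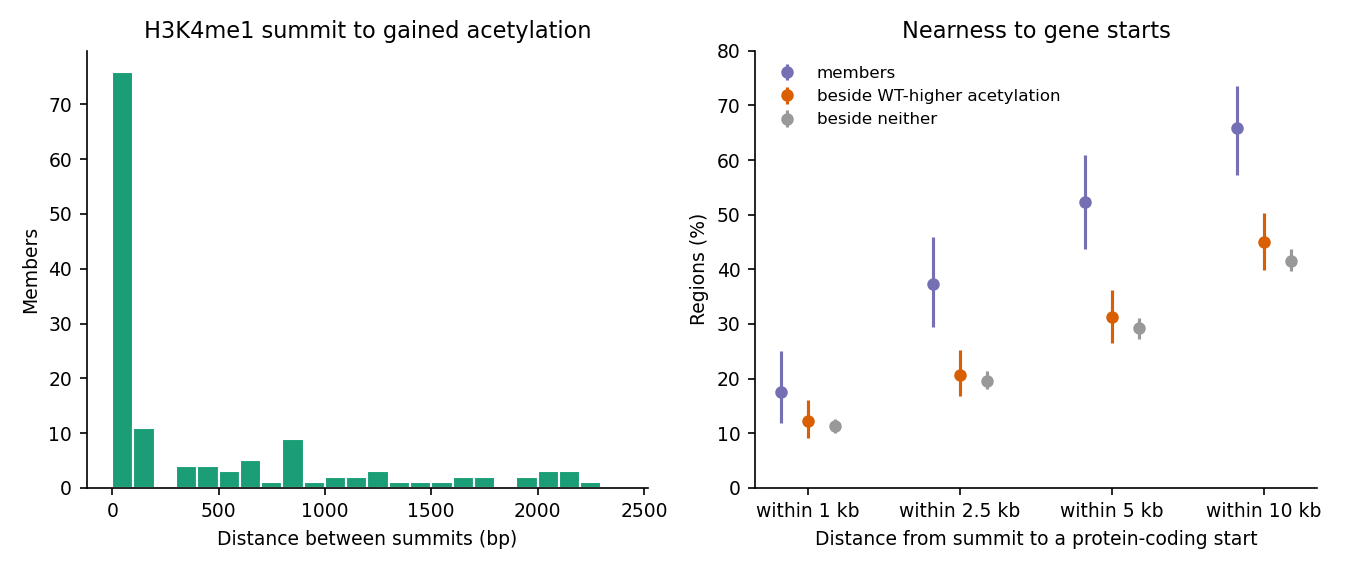
Left, number of members by distance between the H3K4me1 summit and the summit of the nearest gained acetylation, in 100 bp bins. Right, percent of regions within 1, 2.5, 5 and 10 kb of a protein-coding start in each class, with 95% Wilson intervals; 76 members lie within 100 bp on the left, and members stand above both other classes at 5 kb on the right.

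The gained acetylation beside members was also nearer to starts than the rest of its lists. The 204 KO-higher H3K27ac regions within 2 kb of a member had a median distance of 5287 bp, against 10169 bp for the other 6907. Their pileup was higher (100.5 against 70) and their fold lower (2.36 against 2.52). For H3K9ac the 113 regions beside a member were at 2563 bp and the other 1770 at 6392 bp.

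Genes of cholesterol efflux and fatty acid synthesis were among those with the largest acetylation folds, with both marks ranked together. Abca1, which moves cholesterol out of cells and is a textbook LXR target, had 2 members in the first intron within 1 kb of its start. They lay at chr4:53172190-53172408 (H3K4me1 pileup 47, fold 2.53) and chr4:53171656-53172038 (pileup 51, fold 2.52). A single H3K9ac gain from 53171538 to 53172795 covered both (pileup 139, fold 6.67), as did an H3K27ac gain of fold 4.50. At each of the 2 H3K4me1 losses stood an H3K4me3 gain, with folds of 2.32 and 3.39. In the authors' deposited table, Abca1 RNA had a log2 fold change of 2.83 (FDR 8.6e-113), the highest of the member genes. The column is named only as wt against ko and was read here as KO over WT. No value used here checked that reading, and every RNA direction given turns around if the ratio is WT over KO.

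The neighbouring genes Abcg5 and Abcg8 encode the paired subunits of the transporter that returns sterols to the gut lumen. The Abcg5 member, in an intron at chr17:85079840-85080088, had an H3K4me1 pileup of 37 and a fold of 2.82. It shared bases with an H3K27ac gain of fold 2.38, and H3K9ac was gained with a fold of 3.38. The member that the authors' annotation names for Abcg8 lay at a promoter, chr17:85075491-85075741. It had an H3K4me1 fold of 1.63, an H3K27ac gain of 2.72 and an H3K9ac gain of 1.98. The protein-coding start nearest to it was annotated to Abcg5. Abcg5 rose by a log2 fold change of 1.23 in the authors' deposited table (FDR 6.38e-56), which gives no value for Abcg8. Lpcat3, an enzyme that puts polyunsaturated fatty acids into phospholipids and a known LXR target, had an intron member with a fold of 2.79 beside H3K27ac and H3K9ac gains of 2.15 and 2.58. Its RNA log2 fold change was 1.04 in the authors' deposited table (FDR 8.76e-45).

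The stearoyl-CoA desaturase genes, which make monounsaturated fatty acids, lie in a cluster on chromosome 19 with 5 members. Their H3K4me1 folds were 2.45 to 3.07, with pileups of 28 to 59. A pair of members between Scd3 and Scd2 (44321901-44322663 and 44322853-44323028) are named for Scd3, and had H3K27ac gains of 6.26 and 6.48. Another pair, 26.7 and 9.37 kb before the Scd2 start, had nearest gains of 5.61 (H3K27ac) and 3.20 (H3K9ac). The last lay beyond the end of Scd1 at 44462999-44463402, with a gain of 5.78. None of the 5 was at a start, while the same 215 kb held 35 KO-higher H3K27ac and 14 KO-higher H3K9ac regions. Here 3 KO-higher H3K4me3 regions lay in the first part of Scd2 and 15 WT-higher H3K27me3 regions lay mostly over its body. In the authors' deposited table, Scd1 and Scd2 RNA rose with log2 fold changes of 1.85 (FDR 1.32e-10) and 1.72 (FDR 1.23e-81). Scd3 was listed at -3.02 with an FDR of 1 in the authors' deposited table, the same value as Gm15350, another member gene.

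**Figure D3:**
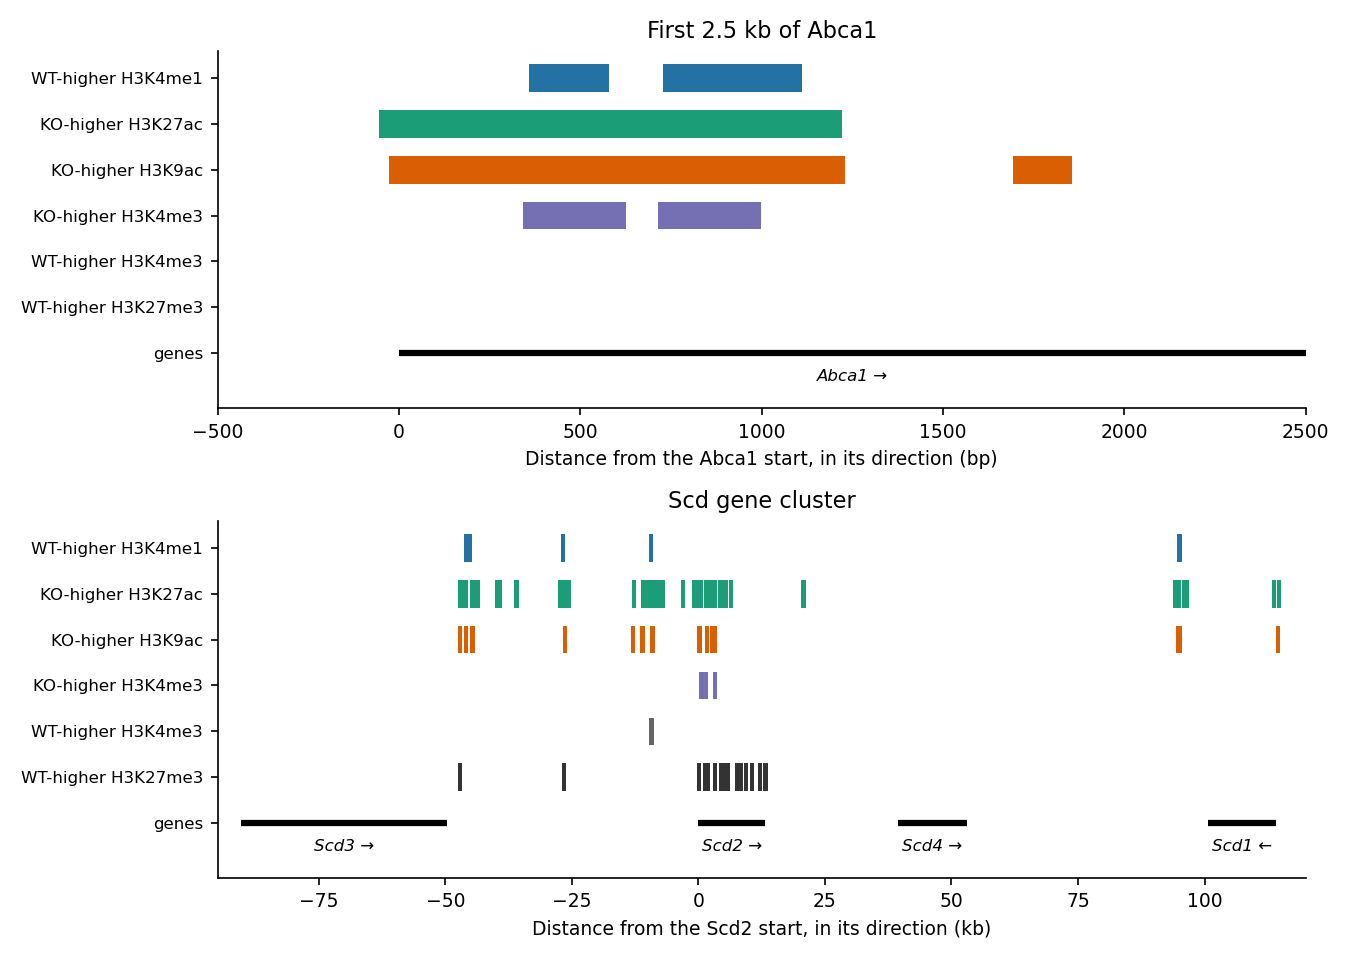
Regions of each list at the start of Abca1 (top, bp from its start) and across the Scd cluster (bottom, kb from the Scd2 start); bars span each region, with narrow ones widened to stay visible, and arrows give gene direction. The 2 H3K4me1 losses of Abca1 fall under 1 acetylation gain per mark and beside 2 H3K4me3 gains, and the 5 losses of the Scd cluster lie outside the genes.

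Other genes of lipid handling had single members. Mttp, which loads lipid onto chylomicrons, had an H3K4me1 fold of 3.34 and an H3K27ac gain of 2.14, and its log2 fold change was 0.59 in the authors' deposited table (FDR 1.26e-09). Cpt1a, which brings fatty acids into mitochondria, had a fold of 2.37 beside an H3K9ac gain of 2.31, and 0.23 in the authors' deposited table (FDR 0.0354). A member that the authors' annotation names for the microRNA gene Mir6922 lay at a start of Srebf1, the regulator of fatty acid synthesis (chr11:60022808-60023238). It had an H3K4me1 fold of 2.55, with gains of 2.35 (H3K9ac), 2.09 (H3K27ac) and 3.44 (H3K4me3), and no RNA value.

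Of enterocyte genes, Krt20, a keratin of mature surface cells, had a promoter member with an H3K4me1 fold of 2.75, H3K27ac and H3K9ac gains of 1.75 and 2.14, and a log2 fold change of 1.10 in the authors' deposited table (FDR 4.53e-20). Ezr, the microvillus linker ezrin, had 1.67 for H3K4me1, 1.996 for H3K27ac and 0.40 for RNA (FDR 7.09e-06) in the authors' deposited table. Members of genes that change between suckling and weaning carried no RNA call. Cps1, of the urea cycle, had folds of 3.33 (H3K4me1) and 4.31 (H3K27ac) but a log2 fold change of -0.09 in the authors' deposited table (FDR 0.790). The transcription factor gene Maf stood at -0.06 there, at an FDR of 1. The member named for Maf lay 276 kb from its start. Of detoxification genes, Nr1i2, the xenobiotic receptor PXR, had 2.66 for H3K4me1 and 3.15 for H3K9ac and no RNA value. Gclm, for glutathione synthesis, had an H3K4me1 fold of 4.38, an H3K27ac gain of 2.10 and 0.20 in the authors' deposited table (FDR 0.132).

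The members with the highest H3K4me1 folds differed in RNA. The highest folds were at Sh3glb1 (4.76), Smad5 (4.51), Gclm (4.38), Nedd9 (4.38), Lmo7 (4.24), Fth1 (4.12) and Zfand5 (4.02). Nedd9 and Lmo7 have 2 members each and rose with log2 fold changes of 0.40 (FDR 0.000451) and 0.75 (FDR 3.14e-21) in the authors' deposited table, while Zfand5 was at 0.12 (FDR 0.604). Sh3glb1, Smad5 and Fth1 have no RNA value. Liph, a phospholipase gene, and Adtrp and B4galt5 had acetylation gains of 6.56, 4.93 and 4.196. B4galt5, for lactosylceramide synthesis, was at 0.01 in the authors' deposited table (FDR 1), and the other 2 have no value there.

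Of the lists of lipid, nuclear receptor and epithelial genes drawn up for these data, members fell at 4 of 16 sterol efflux genes, 3 of 21 genes of fatty acid synthesis, 3 of 29 suckling and weaning genes, 2 of 30 enterocyte genes, 2 of 47 detoxification genes, 1 of 16 chylomicron genes and 1 of 43 genes of PPAR and fatty acid oxidation. Only genes with a WT-higher H3K4me1 region could hold one, and these numbered 6, 4, 6, 4, 4, 1 and 7. In the authors' deposited table, RNA was called higher and lower for 3 and 1 of 5 sterol efflux genes with a value, 3 and 0 of 4 for fatty acid synthesis, 4 and 0 of 4 for enterocytes, and 5 and 1 of 7 for PPAR, beside 4.97% higher and 9.62% lower over all genes of the authors' deposited table. Of the 5 higher PPAR genes only Cpt1a has a member. The counts were 0 and 1 of 2 for cholesterol synthesis and 0 and 1 of 2 for stem cells and Wnt in the authors' deposited table. There they were 1 and 0 for bile acid signalling (1 gene), thyroid hormone and retinoid signalling (3 genes) and the EGF family (2 genes). They were 1 and 0 of 1 for chylomicrons and 2 and 0 of 3 for detoxification, whose higher genes Nfe2l2 and Cyp3a13 have no member. For the corepressor complex and inflammation they were 0 and 0 of 2 each. RNA was called higher for 1 and lower for 0 of the 6 suckling and weaning genes in the authors' deposited table. No member fell at a gene of cholesterol synthesis, bile acid signalling, thyroid hormone and retinoid signalling, the corepressor complex, the EGF family, stem cells and Wnt, or inflammation, of which only 2, 1, 5, 3, 2, 5 and 5 genes had an H3K4me1 region. Nor did one fall at markers of secretory (4 of 25 with an H3K4me1 region), immune (1 of 21) or stromal cells (4 of 21). Members are 4.94% of all regions, so lists this small may hold none at that share. The lists hold differences and not levels, so they do not check the labelled cell type.

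H3K4me3, a mark the rule did not use, was gained beside members and beside no other region of the H3K4me1 list. A KO-higher H3K4me3 region lay within 2 kb of 11 members (8.03%; 4.54 to 13.8), beside 0.397% of all 2774 regions. It lay beside 0 of 354 (upper limit 1.07%) and 0 of 2283 (0.168%) of the other classes. These members belong to Abca1 and Efna1 (2 each), Abcg5, Abcg8, Adtrp, Clic5, Fos, Lpin2 and the Srebf1 intron, and 5 shared bases with the H3K4me3 gain. H3K4me3 gain lay near acetylation gain more widely: 55 of the 131 KO-higher H3K4me3 regions (42.0%) had KO-higher acetylation within 2 kb. Of H3K27ac gains, 20 of 204 beside a member (9.80%; 6.44 to 14.7) and 60 of the other 6907 (0.869%; 0.676 to 1.12) had an H3K4me3 gain within 2 kb. Of H3K9ac gains, 24 of 113 (21.2%; 14.7 to 29.7) and 64 of 1770 (3.62%; 2.84 to 4.59) did. Acetylation regions at 1 place are counted separately and can share an H3K4me3 gain, which these intervals do not allow for. Of the 131 KO-higher H3K4me3 regions, 12 had a member within 2 kb. Acetylation gains beside members lay nearer to starts, as given above, and the part of this in the difference was not tested.

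Efna1, an ephrin ligand, had members with H3K4me1 folds of 2.41 and 2.20 and an H3K4me3 gain of 1.86, and rose with a log2 fold change of 0.55 in the authors' deposited table (FDR 1.07e-07). The immediate early gene Fos had 3.03 for H3K4me1, 2.80 for H3K4me3 and 0.51 for RNA (FDR 0.00250) in the authors' deposited table. Clic5, a microvillus protein gene, had 1.99 and 1.82 and did not pass the test at 0.09 (FDR 0.743) in the authors' deposited table. Lpin2, a phosphatidate phosphatase, had an H3K4me3 gain of 4.30 and Adtrp one of 5.77, each without an RNA value.

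WT-higher H3K4me3 lay within 2 kb of 5 members (3.65%; 1.57 to 8.26), beside 5.77% of all regions and 15.5% (12.1 to 19.7) of those beside WT-higher acetylation. It shared bases with 3 members (2.19%; 0.747 to 6.24), close to the 2.27% of all regions. These 3 also shared bases with gained acetylation: the member 9.37 kb before Scd2, 1 named for Lpp and 1 on the added sequence. WT-higher H3K27me3 lay beside 13 members (9.49%), against 1.19% of all regions, but 10 of them were on the added sequence. Without it, 3 of 126 (2.38%; 0.813 to 6.77) remained, all in the Scd cluster at Scd2 and Scd3. On mouse chromosomes the share was 0.689% of all regions, 1.42% (0.606 to 3.27) beside WT-higher acetylation and 0.483% beside neither. The members' interval overlapped that of the class beside WT-higher acetylation. WT-higher H3K9me3 lay beside 1 member, on the added sequence, and beside 0.505% of all regions. Without that sequence it lay beside 0 of 126 members and 0.435% of all regions on mouse chromosomes. KO-higher H3K9me3 lay beside 0 of 137 (upper limit 2.73%; 0.144% of all regions).

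Many member genes had higher RNA in KO, and 1 had lower RNA, with the sign read as above. The authors' annotation names 117 genes for the 126 members on mouse chromosomes, of which 82 have an RNA value in the authors' deposited table. RNA was called higher in KO, at an FDR under 0.05, for 38 of the 82 (46.3%; 36.0 to 57.1), beside 4.97% of all 1549 genes of the authors' deposited table. It was called lower for 1 (1.22%; 0.216 to 6.59), beside 9.62% of the genes of the authors' deposited table, and 43 passed in neither direction. The 1 lower gene was Osbpl3, an oxysterol-binding protein, at -0.36 in the authors' deposited table (FDR 0.00233). The median log2 fold change was 0.24 over member genes and -0.04 over all genes of the authors' deposited table, and 68 of 82 values were positive.

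The other classes looked different in the same comparison. Of 173 genes beside WT-higher acetylation, 0 were called higher and 35 lower (20.2%; 14.9 to 26.8) in the authors' deposited table, with a median of -0.15. Of 1294 genes beside neither, 39 were higher (3.01%; 2.21 to 4.09) and 113 lower (8.73%; 7.31 to 10.4) in the authors' deposited table, with a median of -0.04. All these genes had WT-higher H3K4me1 by the list, and the calls went opposite ways in the members and the class beside WT-higher acetylation.

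Pileup and nearness to starts also differed between the classes, so RNA was set out within ranges of each, chosen after values had been seen. At a pileup of at least 70, 11 of 35 member genes (31.4%; 18.6 to 48.0) and 7 of 112 beside neither (6.25%; 3.06 to 12.3) were higher in the authors' deposited table. Under it, 29 of 49 (59.2%; 45.2 to 71.8) and 34 of 1215 (2.80%; 2.01 to 3.88) were higher in the authors' deposited table. With the summit within 5 kb of a start, 25 of 45 member genes (55.6%; 41.2 to 69.1) and 17 of 447 (3.8%; 2.39 to 6.01) were higher in the authors' deposited table. Farther away, the counts in the authors' deposited table were 13 of 38 (34.2%; 21.2 to 50.1) and 24 of 905 (2.65%; 1.79 to 3.92). A gene with regions in both ranges is counted in each.

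The mark gained went with the share of genes called. Of 27 genes with members beside gains of both H3K27ac and H3K9ac, 23 were higher in KO (85.2%; 67.5 to 94.1) in the authors' deposited table, with a median of 0.60. The other 4 were Scd3, Ugcg, Sh3rf1 and 6030466F02Rik. With H3K27ac alone it was 14 of 47 genes (29.8%; 18.7 to 44.0), median 0.17, and with H3K9ac alone 2 of 9 (22.2%; 6.32 to 54.7), median 0.04, in the authors' deposited table. Genes with both gains included Farp2, a guanine nucleotide exchange factor (1.01, FDR 8.01e-27), Vipr1, a receptor of vasoactive intestinal peptide (0.81, FDR 6.59e-20), and Rhog, a small GTPase with 2 members (0.61, FDR 2.6e-09), in the authors' deposited table. Fam84a had H3K27ac alone within 2 kb, with an H3K9ac gain just past that limit at 2035 bp. It was at 1.19 in the authors' deposited table (FDR 1.27e-26). The size of the acetylation fold, pooled over both marks, had little rank relation to the RNA value (Spearman rho 0.09 over 82 genes). The H3K4me1 fold had 0.30 (a description across genes).

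**Figure D4:**
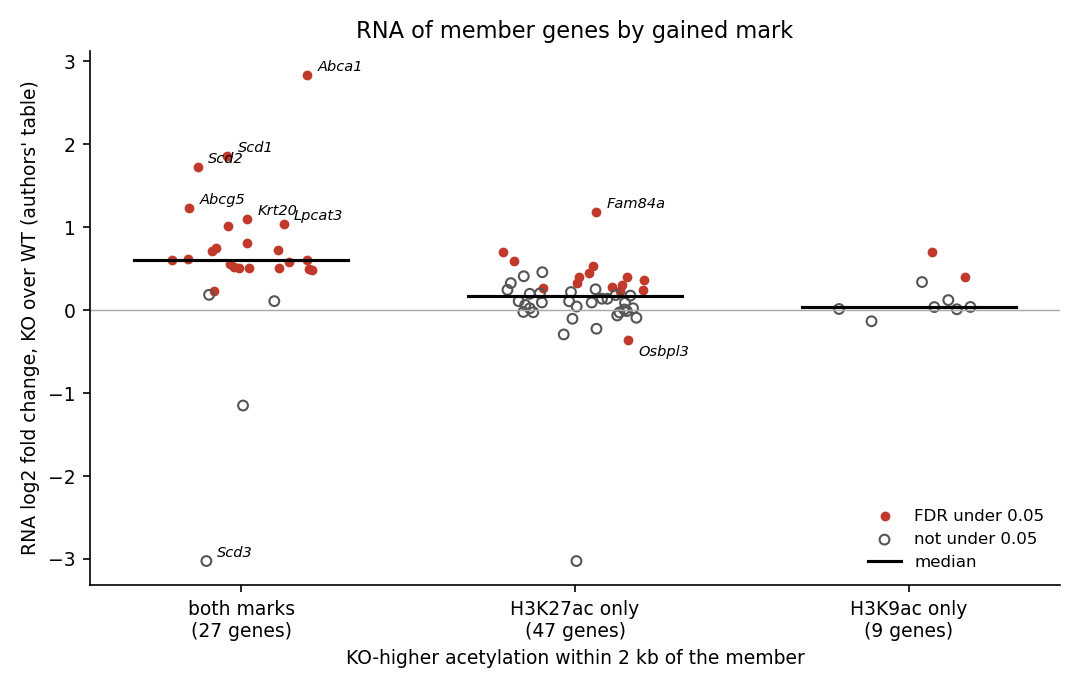
RNA log2 fold change of member genes (KO over WT, authors' deposited table) by the acetylation gained within 2 kb; each point is 1 gene, filled where the FDR is under 0.05, lines are medians, and a gene with members of 2 kinds is drawn in both. Of the genes with both gains, 23 of 27 are filled and above 0, and Osbpl3 is the 1 filled point below 0.

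Beyond the 2 kb limit the share of higher genes fell off with distance. Each gene was placed by its H3K4me1 region nearest to any KO-higher acetylation, in ranges chosen after values had been seen. In the authors' deposited table, 25 of 51 genes (49.0%; 35.9 to 62.3) were higher where the regions shared bases and 13 of 31 (41.9%; 26.4 to 59.2) at 1 to 2000 bp. The count was 12 of 58 (20.7%; 12.3 to 32.8) from there to 10 kb and 16 of 201 (7.96%; 4.96 to 12.5) to 50 kb in the authors' deposited table. It was 7 of 456 (1.54%) to 200 kb and 4 of 751 (0.533%) beyond in the authors' deposited table. Genes lower in KO went the other way, from 1 of 51 (1.96%) to 83 of 751 (11.1%) in the authors' deposited table. The ranges within 2 kb hold member genes only. The 173 genes beside WT-higher acetylation, with 35 lower (20.2%) in the authors' deposited table, therefore all fall in the farther ranges. Their part in the rise of lower calls was not tested. The share was thus lower in each range beyond the 2 kb limit than in the one before it.

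**Figure D5:**
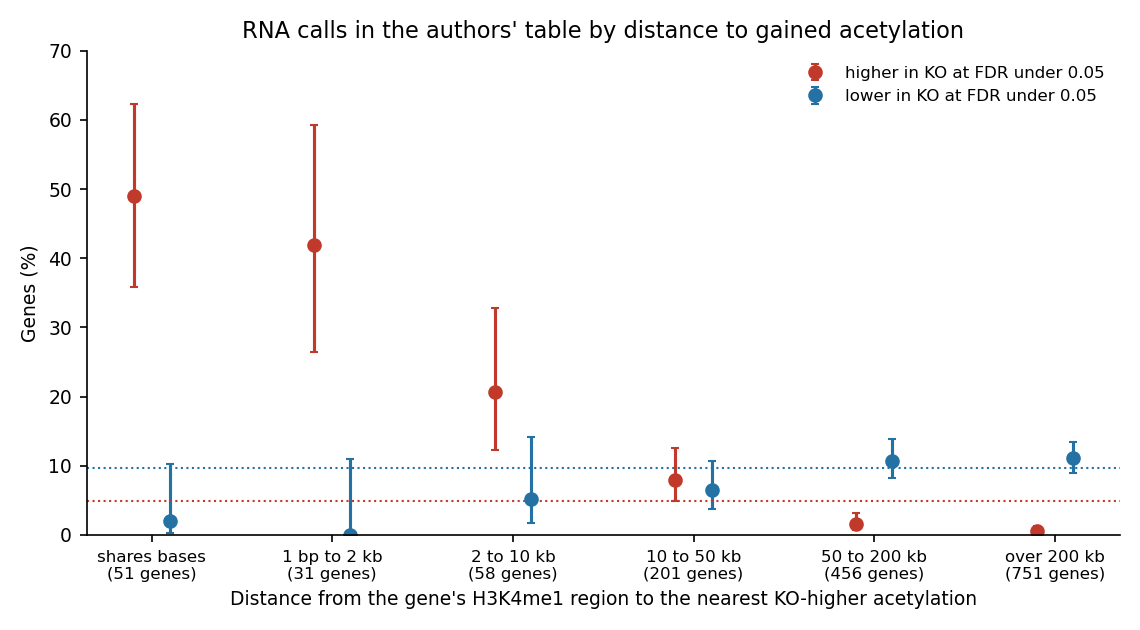
Percent of genes called higher (red) or lower (blue) in KO in the authors' deposited table, by distance from the gene's H3K4me1 region to the nearest KO-higher acetylation; bars are 95% Wilson intervals and dotted lines the shares over all 1549 genes. Higher calls fall from 49.0% where regions share bases to 0.533% over 200 kb away, and lower calls rise from 1.96 to 11.1%.

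The files hold an added sequence named UGT1A_296012512 that is not a chromosome of mm9, and 11 members (8.03%) lay on it, beside 17 of all 2774 regions (0.613%). Their H3K4me1 pileups of 91 to 279 were high and their folds of 1.54 to 2.82 low. Its regions in the other lists numbered 12 KO-higher and 3 WT-higher for H3K27ac, 1 and 2 for H3K9ac, 0 and 9 for H3K4me3, 0 and 10 for H3K9me3, and 35 WT-higher of 395 for H3K27me3. These members have no gene and no RNA value, so they enter no RNA count.

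The RNA results rest on the authors' nearest gene, which 109 of 126 members share by symbol with the nearest protein-coding start used here. A gene under different symbols, such as Tfec and Tcfec or Jade1 and Phf17, counts as a mismatch, so this count is a lower bound. There were 12 member genes that also had a region of another class. Fewer cells of a type and less mark or RNA per cell cannot be told apart in these bulk samples.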

How the data were processed

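ChIP-seq of 6 histone marks in 1 library per mark and genotype was used as deposited. The labels' protocols give mm9 as the genome. Per the submitters' processing notes, the tools were Bowtie2 2.2.9, MACS2 2.1.1, HOMER 3.12 and CASAVA 1.8.2. Per the file headers, which name MACS 2.0.10.20130419, the authors called regions against the other genotype's library with a q cutoff of 0.05, keeping 1 tag per position. The deposited pileup is a coverage signal at the summit. The deposited fold is a ratio of that pileup to the other genotype's local background, and -log10 of p and q values is deposited beside it, per the file headers. These values rank and describe regions within a list. Where the nearest gain is of either mark, acetylation folds of the H3K27ac and H3K9ac lists were pooled, which their different scales limit. Of 12 deposited lists, 2 repeat the WT list of their mark, so 10 were used. The authors' deposited table names the nearest gene of each H3K4me1 region, its RNA log2 fold change and an FDR (an adjusted p-value). Its sign was read as KO over WT from the column's name, in which WT comes first; this was not checked against other values. Which program tested RNA is not given in the sources, and 12 columns of per-library values were not used. Where the table left a gene's value blank at one region, its value at another region was taken.

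Members were found in Python 3.11.15 by the distance between region edges. Genes and sequences came from GENCODE vM1 and the genome of the same build. The members and gene lists were chosen with earlier results of these data known. Named genes are those with the 10 highest H3K4me1 folds, acetylation folds or RNA differences in each direction, with a KO-higher H3K4me3 region, in a gene list, or next to the 2 kb limit. Rhog, with 2 members, and the genes without a call among those with both gains were named after their values were seen. The sequence rule took the genes with the highest RNA values, but members overlapping exons were passed over after they were seen. Chromosome 18 was not analysed here. On 2000 simulated regions, 100 of 100 planted members and 0 false ones were found. This checked the distance rule on planted positions only, and gives no rate of false members in the deposited lists.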

Additional observations from a re-analysis of the deposited data

How the results depend on the processing

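Over 11 results and 110 settings, 93 values stayed within the interval of the reported value (within 1.5 times for the count of members) and 17 did not. The RNA log2 fold change, the only result that could change sign, did so in 0. Some of the 93 could not move. Dropping the exclusion repeats every value, as 0 regions met both conditions, and widening it to 5 kb also left 137 members. Leaving out the added sequence cannot alter the promoter, RNA, G+C and half-site results, which never held it. With a -log10 q of at least 5 in the lists, 55 members were left, 0 of them beside WT-higher H3K4me3 and 0% of their genes with lower RNA; G+C was 52.7% and the half-site share 17%. With gains taken from the H3K9ac list only, there were 60 members: the 49 beside both gains and the 11 beside H3K9ac alone. Of these 60, 15.0% had KO-higher H3K4me3, and G+C was 55.3%. In the authors' deposited table, 69.4% of their genes had higher RNA (median 0.52) and 0% lower RNA. A limit of 1 kb gave 75.4% of members sharing bases, and one of 5 kb gave 52.0% and a median summit distance of 177 bp. Promoters reaching 2.5 kb held 37.3% of members, KO-higher H3K4me3 shared bases with 3.65%, and whole regions had a G+C of 57.1%. The causes were not tested. Leaving out the added sequence was chosen after seeing the data. No paired analysis was possible because each mark and genotype has 1 library, so no replicate could be left out either. The upper limits beside counts of 0 cover the number of regions counted, and regions missed at this depth were not estimated.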
